A study of Drosophila melanogaster with 3 samples.

Results

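The 269 small nucleolar RNA (snoRNA) genes of the Drosophila melanogaster genome and the 95 genes that host them were examined for binding of the Hox protein Antennapedia (Antp). Genes with the biotype snoRNA were taken from the dm6 gene models of Ensembl release 115, and a host is a gene whose span contains a snoRNA gene on the same strand. These 364 members belong to a set of 18277 genes on the main chromosome arms. The binding data came from chromatin immunoprecipitation followed by sequencing (ChIP-seq) of whole embryos of both sexes, collected at 0 to 24 h and sampled as 3 biological replicates of a single group. The flies, of strain AntP-MiMIC-GFP, carry an eGFP exon inside an intron of Antp, so the endogenous gene makes a tagged protein. Per the labels, an antibody against GFP was used for the pulldown, although 1 label names Antp as the antibody, and chromatin was sonicated to 200 to 800 bp. Whole embryos mix every tissue, so a peak does not say in which cells the protein was bound. With 1 group and no read counts in the lists, no comparison of conditions was possible and the depth is unknown.

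SnoRNAs guide chemical modification of other RNAs in the nucleolus. Box C/D snoRNAs, named for their C and D sequence boxes, direct methylation of ribosomal RNA by fibrillarin, and box H/ACA snoRNAs direct conversion of uridine to pseudouridine. A related group, the small Cajal body RNAs (scaRNAs), guides the same changes in spliceosomal RNAs. In flies most snoRNAs are cut out of introns after splicing, so they have no promoter of their own and are transcribed from the promoter of the host. The usual hosts are genes for ribosomal proteins and translation factors, and the Uhg genes, which are spliced non-coding transcripts that carry several snoRNAs. Antp is a homeodomain transcription factor that sets thoracic segment identity.

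The host promoters and snoRNA genes below were chosen to show the positions that the results turn on. Sequences were read from the RefSeq copy of the dm6 assembly and run 5′ to 3′ on the strand of the gene. The 4 promoters extend from 200 bases upstream of the annotated transcription start site (TSS) through its first 20 transcribed bases, so only those last 20 bases belong to a transcript. No other annotated gene overlaps these windows. Capitals mark the DNA replication-related element (DRE), TATCGATA, and CTTT near the start, the core of the pyrimidine-rich initiator found at ribosomal protein genes.
RpL23A, host of 4 snoRNA genes, 3L:1668635-1668854, minus strand: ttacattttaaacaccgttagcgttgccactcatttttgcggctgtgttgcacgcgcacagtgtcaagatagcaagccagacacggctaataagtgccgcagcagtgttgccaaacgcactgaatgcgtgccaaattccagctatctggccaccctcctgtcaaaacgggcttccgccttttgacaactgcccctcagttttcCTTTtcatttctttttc
RpL28, host of 5, 3L:3222941-3223160, minus strand: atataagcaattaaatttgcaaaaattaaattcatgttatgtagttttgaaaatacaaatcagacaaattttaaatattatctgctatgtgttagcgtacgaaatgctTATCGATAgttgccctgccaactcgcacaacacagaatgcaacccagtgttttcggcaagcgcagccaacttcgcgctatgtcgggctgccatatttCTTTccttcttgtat
RpS12, host of 2, 3L:13023152-13023371, plus strand: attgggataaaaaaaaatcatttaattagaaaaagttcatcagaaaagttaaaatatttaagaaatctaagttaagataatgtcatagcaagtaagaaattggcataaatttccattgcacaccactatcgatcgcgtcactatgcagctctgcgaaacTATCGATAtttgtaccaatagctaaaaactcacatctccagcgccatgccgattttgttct
RpS5a, host of 14, X:17148245-17148464, minus strand: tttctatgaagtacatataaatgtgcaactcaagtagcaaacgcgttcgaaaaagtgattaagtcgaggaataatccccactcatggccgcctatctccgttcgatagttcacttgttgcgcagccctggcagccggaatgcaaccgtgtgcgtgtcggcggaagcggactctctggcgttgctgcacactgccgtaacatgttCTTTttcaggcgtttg

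The strongest Antp-eGFP summit of each of these promoters lay upstream of the TSS, at -96 bp in RpL23A, -69 bp in RpL28, -53 bp in RpS12 and -66 bp in RpS5a. The DRE began at -92 bp in RpL28 and at -41 bp in RpS12, and CTTT began 3 bases downstream of the start in RpL23A, 5 in RpL28 and 4 in RpS5a. Among the snoRNA genes, U3:9B and Psi18S-301 have no host, Me28S-A774b lies in an intron of RpS12 and Psi18S-1275 in an intron of RpS29. Capitals mark the C box TGATGA in the first 20 bases and the D box CTGA in the last 15 bases of a C/D snoRNA, and ACA in the last 8 bases of an H/ACA snoRNA.
snoRNA:U3:9B, C/D class, X:10348125-10348337, plus strand: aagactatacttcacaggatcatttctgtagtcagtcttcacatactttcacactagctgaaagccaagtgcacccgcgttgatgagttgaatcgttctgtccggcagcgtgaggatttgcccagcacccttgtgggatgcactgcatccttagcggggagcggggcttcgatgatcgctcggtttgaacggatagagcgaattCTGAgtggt
snoRNA:Me28S-A774b, C/D class, 3L:13023580-13023652, plus strand: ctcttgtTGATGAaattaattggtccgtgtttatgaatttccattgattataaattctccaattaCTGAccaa
snoRNA:Psi18S-301, H/ACA class, 3R:20574906-20575043, plus strand: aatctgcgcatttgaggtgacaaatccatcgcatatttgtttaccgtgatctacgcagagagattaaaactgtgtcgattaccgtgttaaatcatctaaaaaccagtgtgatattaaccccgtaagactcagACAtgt
snoRNA:Psi18S-1275, H/ACA class, 3R:9778398-9778537, plus strand: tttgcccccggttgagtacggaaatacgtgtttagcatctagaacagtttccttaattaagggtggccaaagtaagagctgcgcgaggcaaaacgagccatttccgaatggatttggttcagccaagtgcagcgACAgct

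The 269 snoRNA genes comprised 104 of the C/D class, 120 of the H/ACA class and 45 here called other. The names of these 45 lack the prefixes, such as Me or Psi, that were used here to assign a class. The classes were taken from the gene names, and the sequences carried the boxes of the named class in most cases. TGATGA was found in 68 of the 104 C/D genes, against 0 of the 120 H/ACA genes, and CTGA in 95 and 3 of them. ACA near the 3′ end was found in 114 H/ACA genes and 6 C/D genes. Of the 45 other genes 15 carried both TGATGA and CTGA, and 11 carried ACA near the 3′ end. Some of them may thus belong to the C/D or H/ACA class, and the counts by class may be incomplete. The C/D genes had a median length of 80 bp and the H/ACA genes of 140 bp. In all, 247 snoRNA genes had a host, of which 12 lay inside 2 hosts, and 22 had none. Of the hosted genes 243 lay in an intron and 4 touched an exon. The hosts were 29 ribosomal protein genes, 55 other protein-coding genes, 10 non-coding genes and 1 pseudogene. Many snoRNA genes are copies of each other: 119 belonged to 37 families of 2 or more numbered copies, and 48 shared an exact run of 36 bases with another snoRNA gene. A read that lies wholly inside such a run cannot be assigned to 1 copy, but the peak lists do not give the read length. Of those 48, 6 were called bound as defined next.

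Antp-eGFP summits were almost absent from the snoRNA genes themselves, and the share with a summit nearby depended on the distance allowed and on the genes compared. A gene was called bound when the summit of a peak in the reproducible list, the 4351 peaks kept by the irreproducible discovery rate (IDR) procedure, lay in its span or within 1 kb. By this rule 45 of 269 snoRNA genes (16.7%) were bound, against 25.9% of all 18277 genes. The snoRNA genes are far shorter than most genes, so shorter RNA genes are the closer comparison: 28 of 290 tRNA genes (9.66%), 24 of 260 microRNA genes (9.23%) and 11 of 32 spliceosomal snRNA genes were bound. The snoRNA share was thus below that of all genes and of snRNA genes, and above that of tRNA and microRNA genes. The order against all genes also depended on how far a summit could lie. In the span alone 2 snoRNA genes were bound (0.743%, against 9.96% of all genes). The span held a summit in 0 of 290 tRNA genes, 0 of 260 microRNA genes and 7 of 32 snRNA genes. A near absence from the span was thus shared with tRNA and microRNA genes but not with snRNA genes. Within 5 kb 171 snoRNA genes were bound (63.6%, against 45.0% of all genes), so there they lay above the background and not below it. The 5 kb shares of tRNA, microRNA and snRNA genes were 29.7%, 34.6% and 43.8%, all below the snoRNA share. At 5 kb, however, all snoRNA genes of a host can reach the same summit, as the 14 of RpS5a do. The distinct summits were not counted at that distance, so 171 is not a number of separate sites. The 45 bound genes rested on 33 different summits.

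In the separate replicates, each list was cut to its 4351 entries of highest signal, the strength value that the authors' files give for each peak. Replicate 1 then called 52 snoRNA genes, replicate 2 called 46 and replicate 3 called 62, which is 19.8% ± 3.00 (SD, n = 3). All genes were called at 25.7% ± 0.188 in the same lists, above every snoRNA value. The tRNA genes were called at 9.54% ± 1.44 and the microRNA genes at 9.74% ± 1.73, below every snoRNA value. The snRNA genes were called at 35.4% ± 1.80, above every snoRNA value. A summit in all 3 of these lists was found for 36 snoRNA genes (13.4%), against 20.2% of all genes. In the whole pooled list of 30000 entries, which reaches far weaker signal, 142 snoRNA genes (52.8%) had a summit in range, against 68.8% of all genes. In that list the shares of tRNA, microRNA and snRNA genes were 46.6%, 40.8% and 59.4%.

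Bound snoRNA genes lay mostly close to the start of their host. Of 80 snoRNA genes up to 1 kb from a host TSS 27 were bound (33.8%), against 6 of 80 at 1 to 2 kb (7.5%) and 5 of 87 farther away (5.75%). The order held in each replicate, with 30, 26 and 38 bound genes in the nearest band, 10, 9 and 9 in the middle one and 5, 4 and 6 in the farthest, in the order of replicates 1 to 3. The rule and the bands overlap, since 1 kb around a gene of the nearest band reaches the host TSS. In that band 26 of 46 genes were bound where the host had an IDR summit within 500 bp of a TSS, against 1 of 34 where it had none. The counts were 5 of 37 against 1 of 43 at 1 to 2 kb, and 0 of 40 against 5 of 47 farther away. Host and snoRNA calls are read from the same IDR summits, so this split is a description and not independent evidence. The 38 bound hosted genes lay in 28 hosts. For 30 of them the strongest summit was nearer the host TSS than the snoRNA, and for 27 it fell within 500 bp of that TSS. The median distance from summit to host TSS was 78 bp, and from summit to snoRNA 692.5 bp.

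The classes differed in the share bound and in their distance from the host start. In total 25 of 104 C/D genes (24.0%), 12 of 120 H/ACA genes (10%) and 8 of 45 other genes (17.8%) were bound. Beside the 25.9% of all genes the C/D share was close and the H/ACA share below. Beside the 9.66% of tRNA genes and 9.23% of microRNA genes, the H/ACA share was close and the C/D share above. Both shares were below the 34.4% of snRNA genes. In the replicates the C/D share was 27.2% ± 4.74 and the H/ACA share 12.8% ± 0.481 (SD, n = 3), and the lowest C/D value, 24.0%, was above the highest H/ACA value, 13.3%. C/D genes lay closer to the start of the host, at a median of 1082 bp, against 1696 bp for H/ACA genes. Among genes up to 1 kb from the host TSS the shares were nearly equal, at 15 of 44 C/D genes (34.1%) and 8 of 23 H/ACA genes (34.8%). At 1 to 2 kb, 2 of 23 C/D genes and 2 of 45 H/ACA genes were bound. Beyond 2 kb, 4 of 27 C/D genes and 0 of 43 H/ACA genes were bound, but the 4 rested on 2 summits, since 3 of them lie in Uhg5 and share 1 summit. By host, 12 of 25 C/D genes that lie in ribosomal protein genes alone were bound, against 6 of 42 H/ACA genes there. Genes that also lie in a second host of another type are not in these counts. With a non-coding second host, 0 of 4 C/D genes and 0 of 1 H/ACA gene were bound. With the pseudogene as second host, 1 of 1 H/ACA gene was bound. Genes of 1 host share summits, so neither these counts nor the class totals are numbers of separate sites. Of the 42 H/ACA genes, 14 lie in RpS5a and 7 in RpS7, none of them bound. Among the 12 bound C/D genes, 3 are Or-CD11 copies in RpL28.

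**Figure D1:**
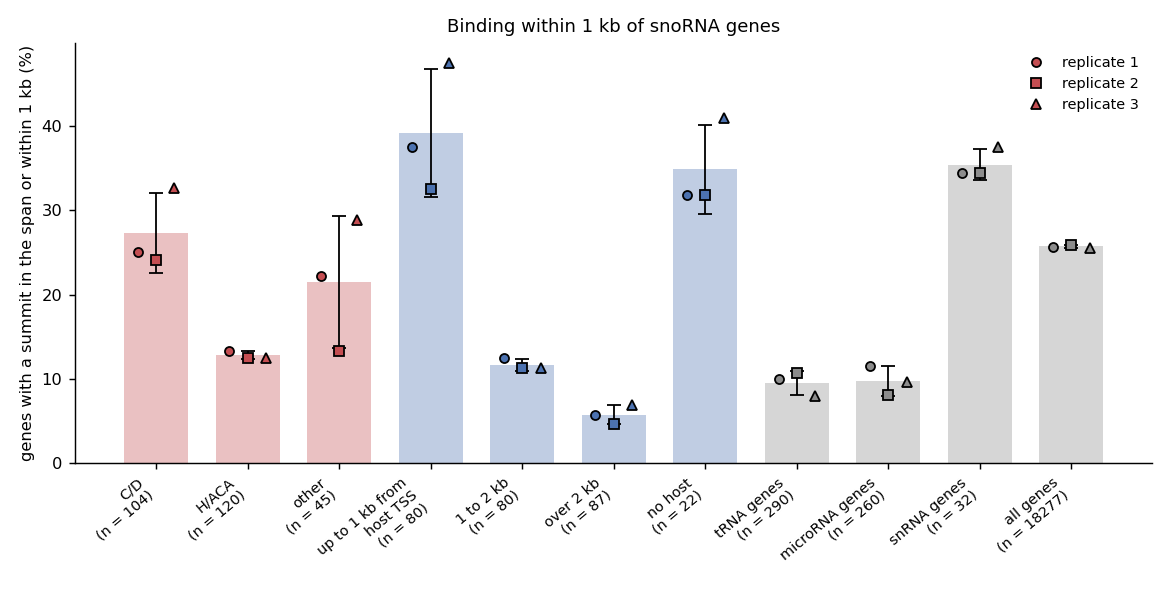
Percent of genes with a summit in the span or within 1 kb (y axis) in the 4351 strongest entries of each replicate (points), with the mean (bars) and SD (error bars), for snoRNA classes (red), snoRNA genes by distance to the host TSS or with no host (blue) and other gene sets (grey). The 80 genes up to 1 kb from a host TSS stood at 37.5, 32.5 and 47.5%, above the bands farther away, and all genes lay at 25.7%.

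Few snoRNA genes had a summit of their own. A total of 4 lay within 100 bp of an IDR summit, 5 within 200 bp and 13 within 500 bp, and the median distance to the nearest IDR summit over all 269 was 3324 bp. These distances were not counted for other gene sets, so it is not known whether the numbers are low for genes this short. The only hosted gene with a summit in its span was Me18S-C1968, a C/D snoRNA in an intron of 10634 bp of Swim, which encodes a secreted protein that binds the signalling molecule Wingless. That summit had a signal of 185 and IDR rank 1963, where rank 1 is strongest, and ranked 2148, 4241 and 1212 in replicates 1 to 3. It lay 4121 bp from the nearest TSS of Swim. Across all hosts, 44 IDR summits fell within the spans and this one alone was within 100 bp of a snoRNA gene.

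Several of the nearest hosted genes were next to a promoter summit of their host. Psi28S-2949, an H/ACA snoRNA at the front of the non-coding host Uhg4, was 177 bp from a summit that lay 78 bp from the Uhg4 TSS. Me28S-A774b, printed above, was 281 bp from the summit of RpS12, which lay 53 bp from the TSS. Psi18S-1275 was 365 bp from the summit of RpS29, 9 bp from the TSS. For 11 of the 38 bound hosted genes the strongest summit was more than 500 bp from the host TSS. Among them was Or-CD4, the last snoRNA of Uhg5 and chosen after its values were seen, 358 bp from a summit with a signal of 167 that lay beyond the 3′ end of the host, 3087 bp from the TSS. This summit ranked 2614, 2241 and 2080 in replicates 1 to 3 and also put the neighbouring Me28S-G2703c and Me28S-G2703b within 1 kb.

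**Figure D2:**
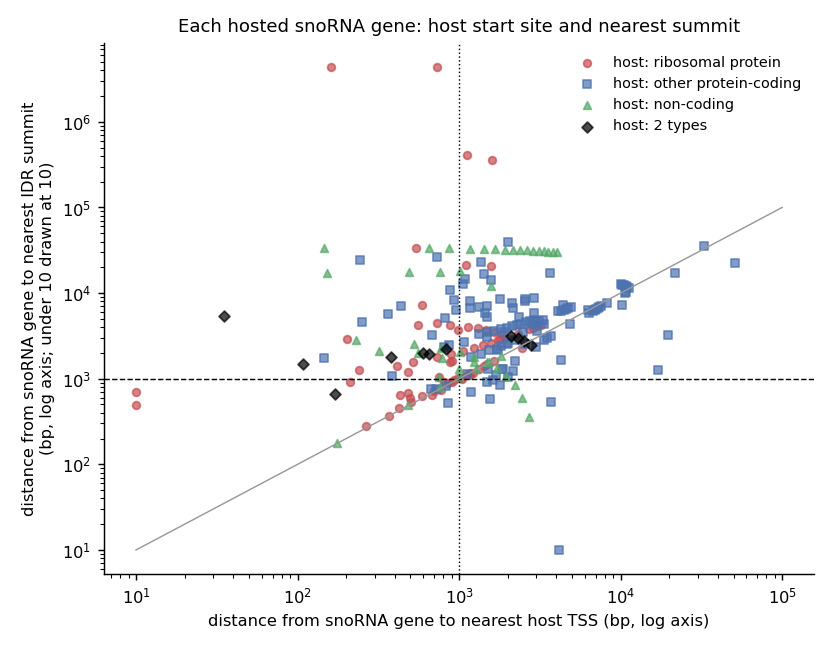
For each of the 247 hosted snoRNA genes, distance to the nearest host TSS (x axis, bp, log scale) and to the nearest IDR summit (y axis, bp, log scale), coloured by host type; black diamonds are genes inside 2 hosts of different types, values under 10 bp are drawn at 10, dotted and dashed lines mark 1 kb and the grey diagonal marks equality. Points near the diagonal are snoRNA genes as far from a summit as from the host start, and 27 genes lie below and to the left of both lines.

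Of the 22 snoRNA genes with no host, which the annotation places inside no longer gene on their strand, 7 were bound (31.8%), near the 25.9% of all genes, and these 7 rested on 5 summits. In the replicates 7, 7 and 9 were called, 34.8% ± 5.25 (SD, n = 3), against 25.7% of all genes. The gene snoRNA:185 lay 14 bp from the strongest of these summits, with a signal of 244 and ranks 930, 1656 and 1417 in replicates 1 to 3. Or-CD13, Or-ACA6 and the scaRNA gene MeU1b-A234 shared 1 summit with a signal of 228 that ranked 1330, 1330 and 1705. The scaRNA gene MeU1:95C-A24 was 447 bp from a summit with a signal of 190 and ranks 1630, 2130 and 2218, whose nearest start was that of snRNA:U1:21D at 125 bp, so this peak cannot be assigned to either gene. These 3 summits were within the strongest 4351 entries of every replicate.

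U3 is the snoRNA that directs the first cleavages of the ribosomal RNA precursor. U3:9B held an IDR summit inside its span, with a signal of 123 and IDR rank 3467. The summit ranked 4650, 3415 and 3126 in replicates 1 to 3, just outside the strongest 4351 in replicate 1. Psi18S-301 was 47 bp from a summit with a signal of 122, which ranked 2782, 2857 and 7158, outside in replicate 3. The other U3 genes, U3:54Aa and U3:54Ab, were 17310 and 15214 bp from the nearest IDR summit, although both had an entry of the weaker pooled list within 1 kb.

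The promoters of the hosts were bound far more often than those of protein-coding genes in general. An IDR summit lay within 500 bp of an annotated TSS in 45 of 95 hosts (47.4%), against 20.8% of the 13968 protein-coding genes and 17.2% of all genes. For the 84 protein-coding hosts the count was 43 (51.2%). The strongest 4351 entries gave 47, 44 and 48 hosts in replicates 1 to 3, 48.8% ± 2.19 (SD, n = 3), and 20.3% ± 0.327 of protein-coding genes, so each replicate alone showed a host share more than 20 percentage points higher. In all 3 of these lists, 39 hosts (41.1%) had a TSS summit, against 15.1% of protein-coding genes. The whole pooled list placed a summit at 80 of 95 hosts (84.2%) and at 51.6% of protein-coding genes. The bound hosts carried 123 of the snoRNA genes.

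Ribosomal protein genes were bound in most cases whether or not they carried a snoRNA. Of the 29 ribosomal protein hosts 19 were bound (65.5%), and of the 59 ribosomal protein genes without a snoRNA 33 were bound (55.9%). The replicates called 20, 19 and 20 of the former (67.8% ± 1.99) and 31, 32 and 39 of the latter (57.6% ± 7.39), and the ranges, 65.5 to 69.0% and 52.5 to 66.1%, overlapped. The 55 other protein-coding hosts were bound in 24 cases (43.6%) and in 25, 23 and 23 cases in the replicates (43.0% ± 2.10), above the 20.3% of protein-coding genes in each. Any annotated TSS counts here. With the 5′-most TSS only, 16 of these 55 hosts (29.1%) were bound in the IDR list, against 18.8% of protein-coding genes. The ribosomal protein hosts stayed at 19 in that setting. Of the 10 non-coding hosts Uhg4 and Uhg8 were bound, against 195 of the 3029 non-coding RNA genes other than microRNA genes (6.44%), a set that includes the hosts. The replicates called 2, 2 and 5 non-coding hosts, so replicate 3 alone decided the higher value. Its additional calls were Uhg1, Uhg2 and Uhg5, whose best entries ranked 4090, 4076 and 3868, close to the end of the 4351. The pseudogene host CR33222 had no promoter summit in the IDR list.

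**Figure D3:**
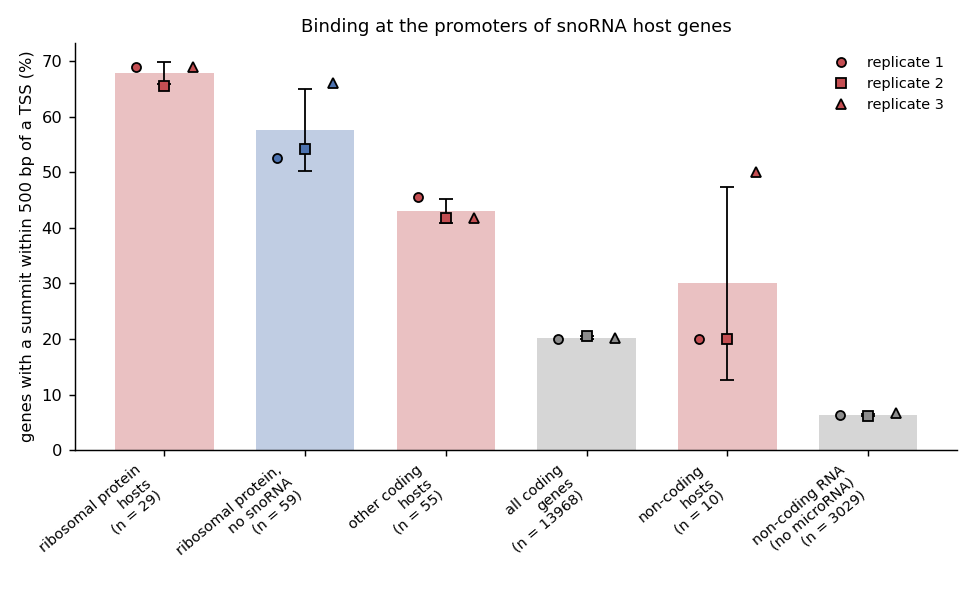
Percent of genes with a summit within 500 bp of a TSS (y axis) in the 4351 strongest entries of each replicate (points), with the mean (bars) and SD (error bars); host genes are red, ribosomal protein genes with no snoRNA blue and reference sets grey. Ribosomal protein genes with and without snoRNAs lay near each other, at 67.8 and 57.6%, and all protein-coding genes at 20.3%.

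The strongest host summit was at Stt3A, the catalytic subunit of the complex that attaches sugar chains to secreted proteins, with a signal of 1094 and IDR rank 70. It ranked 61, 77 and 71 in replicates 1 to 3, within 16 places of each other. It lay 397 bp upstream of the Stt3A TSS but 212 bp from that of bves, so the assignment is uncertain. Msp300, a giant protein linking nuclei to the cytoskeleton in muscle, followed with a signal of 1050, IDR rank 75 and replicate ranks 67, 79 and 75. Its summit was 333 bp upstream of 1 of 5 alternative starts and no other gene started within 500 bp. CG1142 had a signal of 516 and ranked 354, 287 and 372, and CG12316 a signal of 444 and ranks 860, 315 and 339. The gene lola, a transcription factor with BTB and zinc finger domains that hosts 4 snoRNA genes, had a signal of 339 and ranks 1434, 713 and 540.

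Ribosomal protein genes made up most of the remaining strongest hosts. RpL23A had a signal of 863 and ranked 96, 178 and 83 in replicates 1 to 3. RpS20 had a signal of 722 and ranked 207, 100 and 222. RpL14 had a signal of 568 and ranked 197, 361 and 255, but its summit was as near, at 63 bp, to the start of Nelf-E, a subunit of the negative elongation factor. RpS29 had a signal of 463 and ranked 377, 663 and 335, RpL28 a signal of 396 and ranks 497, 728 and 476, and RpS5a a signal of 331 and ranks 520, 1498 and 691. In each of the 6 ribosomal protein hosts named here except RpS20, replicate 2 gave the weakest rank.

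The non-coding host Uhg4 stood among these genes, with a signal of 473 and ranks 261, 588 and 398. Its summit was 78 bp upstream of the TSS, and besides Uhg4 only its own snoRNA genes Psi28S-2949 and Or-aca5 start within 500 bp. Uhg8, by contrast, had a signal of 170 and a summit 347 bp from its start and 82 bp from that of CG5199. The median signal of the 45 host summits was 264, against 172 for all IDR peaks, and 32 of 45 were among the strongest 2175 peaks of that list. Of these host summits 42 had an entry within 100 bp in all 3 replicates, and 38 were in the strongest 4351 of all 3. The exceptions were at the weak end: dom had no entry within 100 bp in replicate 2, RpL7A none in replicate 2 and sta none in replicate 3.

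**Figure D4:**
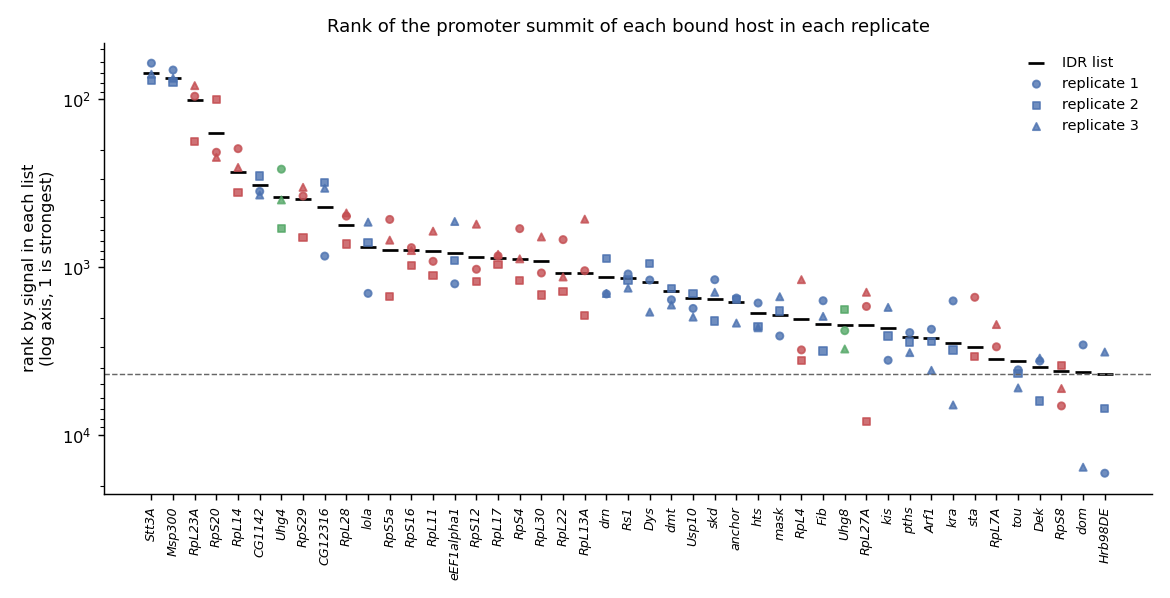
Rank by signal (y axis, log scale, 1 is strongest at the top) of the promoter summit of each of the 45 bound hosts in the IDR list (black bars) and of the nearest entry within 100 bp in replicates 1, 2 and 3 (circles, squares and triangles), red for ribosomal protein, blue for other protein-coding and green for non-coding hosts. The dashed line is the rank of the last IDR peak, 4351; the points lie close together at the strong end and spread at the weak end, as for Hrb98DE, with ranks 16893, 6973 and 3206.

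Number of snoRNAs carried did not order the hosts. Of 56 hosts of a single snoRNA gene 23 were bound, of 24 hosts of 2 to 4 genes 15 were, and of 15 hosts of 5 or more genes 7 were. Arpc2, a subunit of the actin-nucleating Arp2/3 complex and the largest host with 17 H/ACA genes of the families Psi18S-525 and Psi18S-640, was unbound. Its best promoter entry ranked 7828 in the pooled list and 12215, 6545 and 9022 in replicates 1 to 3. The non-coding Uhg1 carried 16 genes and was unbound, with a pooled rank of 5419 and entries of rank 8057 and 4090 in replicates 2 and 3. Uhg5 carried 11 and was unbound at its start, with a pooled rank of 5806. Sf3b3, a splicing factor subunit with 9 genes, was unbound, with a pooled rank of 18352 and ranks 15658, 13601 and 27143. RpS5a with 14 genes and rank 792 was the most strongly bound host among the 6 with most snoRNAs. dom, the ATPase of a chromatin remodelling complex, carried 15 and passed with a summit 475 bp downstream of its start, at IDR rank 4222. The entries within 100 bp of that summit ranked 2908 and 15563 in replicates 1 and 3, with none in replicate 2. The best promoter entries of dom ranked 2908, 10281 and 7644 in replicates 1 to 3.

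**Figure D5:**
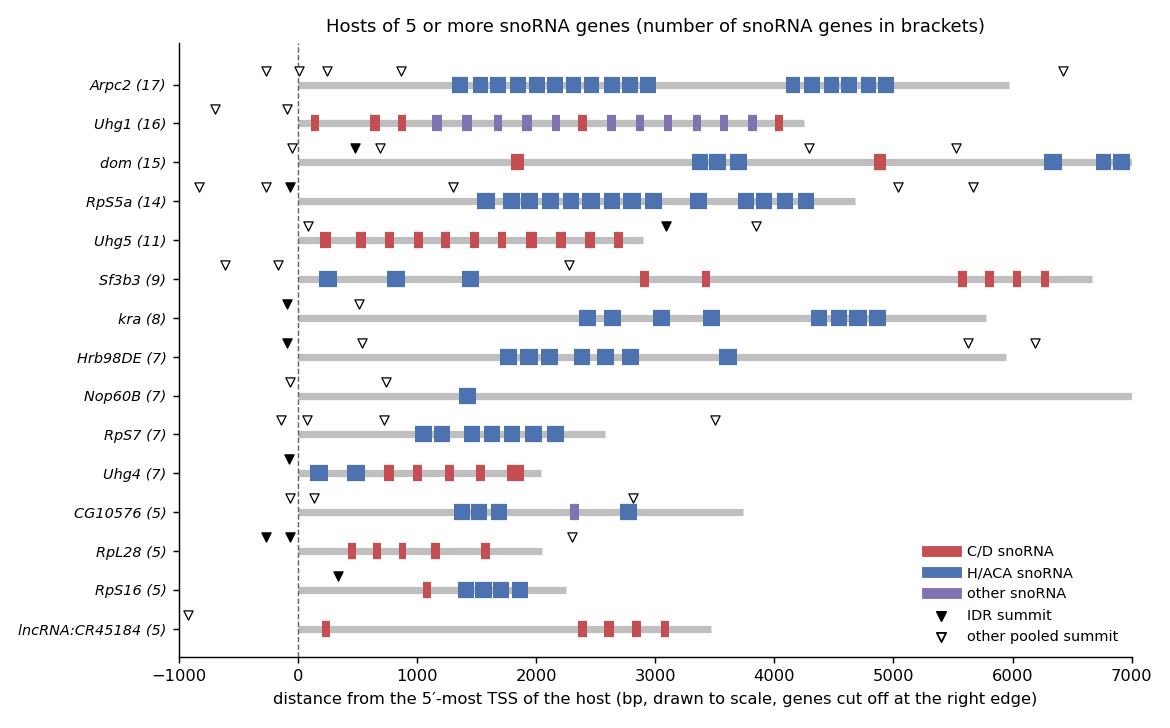
Maps of the 15 hosts of 5 or more snoRNA genes, with distance from the 5′-most TSS on the x axis (bp, to scale, cut off at the right edge), the gene in grey, snoRNA genes as coloured blocks by class, IDR summits as filled triangles and other pooled summits as open triangles. IDR summits stand at or before the front of the gene in kra, Hrb98DE, Uhg4, RpL28 and RpS5a, and none touches a snoRNA block.

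A host just outside the 500 bp limit was pAbp, the poly(A)-binding protein gene with 3 snoRNA genes, whose nearest summit was 522 bp away with a signal of 581, IDR rank 259 and replicate ranks 209, 254 and 271. Just inside lay lola, at 476 bp. RpS3A on the fourth chromosome had no IDR or pooled entry at its start, yet its best promoter entries ranked 1796 and 1099 in replicates 2 and 3, with none in replicate 1. All of these except lola were chosen after their values were seen.

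Host summits sat where promoter summits of other genes sat. Relative to the TSS, the median position over the 43 bound protein-coding hosts was -64 bp and 86.0% were upstream, against -100 bp and 85.9% over all 2905 bound protein-coding genes. For the 19 bound ribosomal protein hosts the median was -49 bp, and for the 33 bound ribosomal protein genes without snoRNAs it was -41 bp. A second protein-coding TSS lay within 500 bp of 37.2% of the summits of protein-coding hosts and of 57.5% of those of all bound protein-coding genes. The summits of protein-coding hosts had a median signal of 264, against 189 over all bound protein-coding genes, and 72.1% against 56.4% were among the strongest 2175 IDR peaks.

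Promoters from 250 bases before to 50 after the 5′-most TSS of each gene were searched on both strands for fixed words, with overlaps between words allowed. For a host with several starts this window can miss the start at which it was bound. The counts for bound and unbound hosts therefore do not always describe the bound promoter. The DRE, TATCGATA, was present in 19 of 95 host promoters (20%) and in 9.36% of the 13968 protein-coding promoters. It was found in 7 of 45 bound and 12 of 50 unbound hosts, in 8 of 29 ribosomal protein hosts (27.6%) and in 18 of 59 ribosomal protein genes without snoRNAs (30.5%). CTTT on the sense strand, beginning within 5 bases of the start, was present in 21.1% of hosts, 37.9% of ribosomal protein hosts, 33.9% of ribosomal protein genes without snoRNAs and 5.63% of protein-coding genes. The Ohler 1 word GGTCACAC was present in 11.6% of hosts and 7.69% of protein-coding promoters. The E-box word CAGCTG was present in 9.47% and 17.6%, and the word GAGAG in 27.4% and 29.7%. The homeodomain word TAATTA, or TAAT with TG, GA or GG as its last pair, is the kind of sequence Antp binds in vitro. Such words were present in 58.9% of host promoters and 55.2% of protein-coding promoters, and in 28 of 45 bound and 28 of 50 unbound hosts. In windows of 201 bp centred on the summits, 15 of 45 host summits (33.3%) held a homeodomain word, against 38.2% of the 2274 IDR summits at protein-coding starts, and 3 of 45 held a DRE, against 8.84%.

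The proteins that assemble on snoRNAs were looked up from a list of 19 genes, of which 15 matched the annotation. An IDR summit lay within 500 bp of a TSS in 4 of these 15, a share near the 20.8% of protein-coding genes. Fib, the methyltransferase of C/D particles and itself a host, had a signal of 173 and ranks 1586, 3161 and 1966 in replicates 1 to 3, but its summit was nearer the start of CG3085, at 34 bp, than its own, at 64 bp. Nopp140, a nucleolar chaperone of both classes, had a signal of 278 and ranks 653, 2606 and 919. The paired assembly ATPases pont and rept had signals of 173 and 118, with ranks 2058, 9186 and 2262 for pont and 8062, 3047 and 3423 for rept. The pont summit was equally near, at 137 bp, to the start of Sirt6. The remaining C/D core genes nop5, Nop56 and hoip had no promoter summit in the IDR list, nor did the H/ACA core genes Nop60B, NHP2, Gar1 and Nop10. The assembly factors Nufip, Spag1 and Nop17l and the U3 protein gene U3-55K had none either. Of these unbound genes Nop56 and Nop10 had an IDR summit elsewhere within 1 kb of the span, and all but Gar1 and Spag1 had a promoter entry in the weaker pooled list. The genes nop5 and Nop60B are hosts as well.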

How the data were processed

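The members, lists and alternatives were chosen with earlier results of these data known. The deposited files are narrowPeak lists per replicate, pooled and after IDR, called by the authors. Neither aligner, caller nor thresholds are given in the sources used here. Peaks were ranked within each list by the deposited signal, the caller's own strength value, and by nothing else. It was checked that the 4351 IDR peaks equal the pooled entries of highest signal. Gene models were Ensembl release 115 without transposable elements and unplaced scaffolds; coordinates are 1-based dm6. Distances run from summits to spans or to every annotated TSS, and replicate ranks come from the nearest entry within 100 bp, except best promoter entries. Counts were described beside those of all or protein-coding genes, with no test, because 1 group was sampled. The rules were tested on simulated data with planted summits. Named genes were the 12 hosts of strongest summit, the 6 with most snoRNA genes, the 6 snoRNA genes nearest a summit (1 per host), bound hostless genes, the 4 unbound hosts with most snoRNA genes and the listed snoRNP genes; neighbours, exceptions and borderline cases were added after values were seen. No control was analysed here. Python 3.11.15 and pandas were used.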

Additional observations from a re-analysis of the deposited data

How the results depend on the processing

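The host share was above that of protein-coding genes in all settings tried, by 1.63 to 2.87 times in the IDR and pooled counts and by 2.08 to 3.00 times in the replicate means. The count of 45 bound hosts was within 1.5 times of itself except in the whole pooled list, which gave 80, and leaving out replicates 1, 2 or 3, with a summit required in both others, gave 40 to 41. The mean host share over replicates of 48.8% became 35.1% with 2175 entries and 66.7% with the strongest 10000, and 47.9 to 50% with each replicate left out. The snoRNA result turned with the distance allowed: of 269 genes 2 were bound by span alone, 171 within 5 kb and 142 in the whole pooled list, and 38 to 42 with each replicate left out. Its share was below that of all genes in 9 of 10 settings. The mean share over replicates of 19.8% became 11.8% with 2175 entries and 31.4% with 10000, and 18.2 to 21.2% with each replicate left out. For single classes and host types 50 of 67 alternative counts were within 1.5 times; the 8 bound genes of the other class fell to 5 without replicate 1. No paired analysis was possible because there is 1 group. Peak lists without reads give no depth, so weak sites cannot be separated from shallow sampling. How far copies of a snoRNA can be told apart where they share sequence was not tested.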
